A study of Mus musculus with 9 samples.

Results

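The genes described here are 42 neighbours on mouse chromosome 3, from Pogz to Sf3b4, out of 18193 genes measured on 9 arrays of mouse liver tumours and livers. They were chosen by their levels in tumour 2 relative to the other tumours, so the difference of tumour 2 from the other tumours is a description and supports nothing. Tumour 2 also enters the fit of all 5 tumours against the livers, and for that reason the fit without it is given too. A gene was taken from the probe set that named it alone and had the highest mean over the 9 arrays. All 42 genes had such a probe set, and none was removed for a low level. Their order is that of RefSeq's GRCm38.p6 annotation, which lists 78 entries from Pogz to Sf3b4, 49 of them protein coding; 10 further genes in this span were measured and are no members of the list.

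The tumours were 5 hepatocellular carcinomas of mice of the genotype RbΔ/Δ; p130Δ/Δ; p107+/-, called triple knockout (TKO), which names 3 members of the retinoblastoma family of cell cycle repressors, with p107 given as heterozygous. An adenovirus that delivers Cre recombinase (Ad-Cre) had been injected into the spleen of these mice, and the tumours were taken 4 months later. The 4 control samples were livers of adult wild-type mice without tumours, for which no virus is named. Effects of genotype, virus and tumour state cannot be told apart in this design. The labels do not say which cells took up the virus, which exons were deleted or whether each sample came from its own animal. The p-values below cover only the spread among these arrays, which may be technical.

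The arrays were close in scale, with medians over all probe sets between 6.22 and 6.27 on the log2 scale of the deposited values. The mean level of 5 hepatocyte genes (Alb, Ttr, Apoa1, Hnf4a, Serpina1c) lay between 14.72 and 14.80 in the tumours and between 14.66 and 14.77 in the livers. All but Hnf4a read close to the highest value of the series, 15.55, so this mean could hardly show a difference in hepatocyte content. Hnf4a read 12.49 to 13.00 in the tumours and 12.12 to 12.84 in the livers. Of the targeted genes, Rbl2 (p130) read 6.77 to 8.43 in the tumours and 9.44 to 10.02 in the livers, and Rb1 read 8.76 to 9.38 against 7.69 to 8.33. Rbl1 (p107) read 4.63 to 4.82 against 4.23 to 5.83. Where the probes lie relative to the deleted exons is not known here, so these levels do not check the labels. Only RNA was measured in this series, and DNA copy number was not analysed here.

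Neighbouring genes on a chromosome need not share a function, and this run joins genes of many kinds. Among them are Mcl1, a BCL2-family protein that protects hepatocytes from apoptosis, Setdb1, a histone H3 lysine 9 methyltransferase, Arnt, the common partner of the Ah receptor and the hypoxia-inducible factors, and Cers2, the main ceramide synthase of the liver. The corresponding stretch of the human genome lies on the long arm of chromosome 1, which is often gained in human hepatocellular carcinoma.

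Tumour 2 stood apart from the other tumours over this run. By Xist, the RNA that silences an X chromosome in females, tumours 1 and 2 and liver 4 read 6.34 to 6.66 and the other 6 arrays 12.68 to 13.55, with the Y-linked Eif2s3y high in those 3 arrays alone. Tumour 2 was thus set against 1 tumour with a like Xist level and 3 without, and tumour 1 lay with the others over the run. The median over the 42 members of tumour 2 minus the mean of the other 4 tumours was 1.60 on the log2 scale, a 3.03-fold higher level. The same median was -0.56 in tumour 1, -0.42 in tumour 3, -0.26 in tumour 4 and -0.28 in tumour 5, each with tumour 2 among its references. Each liver set against the other livers gave a median between -0.03 and 0.02. In tumour 2 the other 879 measured genes of chromosome 3 had a median of -0.13, and all other 18151 genes one of -0.0042. Of the 879 genes 15 were 2-fold higher and 60 were 2-fold lower in tumour 2, beside 417 and 623 of the 18151.

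Tumour 2 was also the highest tumour relative to the livers. Set against the mean of the 4 livers, the median over the members was 1.95 in tumour 2, or 3.87-fold higher, and 0.21, 0.29, 0.32 and 0.35 in tumours 1, 3, 4 and 5. Over all other genes this median lay between -0.09 and -0.07 in every tumour. Over the members tumours 1, 3, 4 and 5 lay close to each other and tumour 2 lay apart from them.

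**Figure D1:**
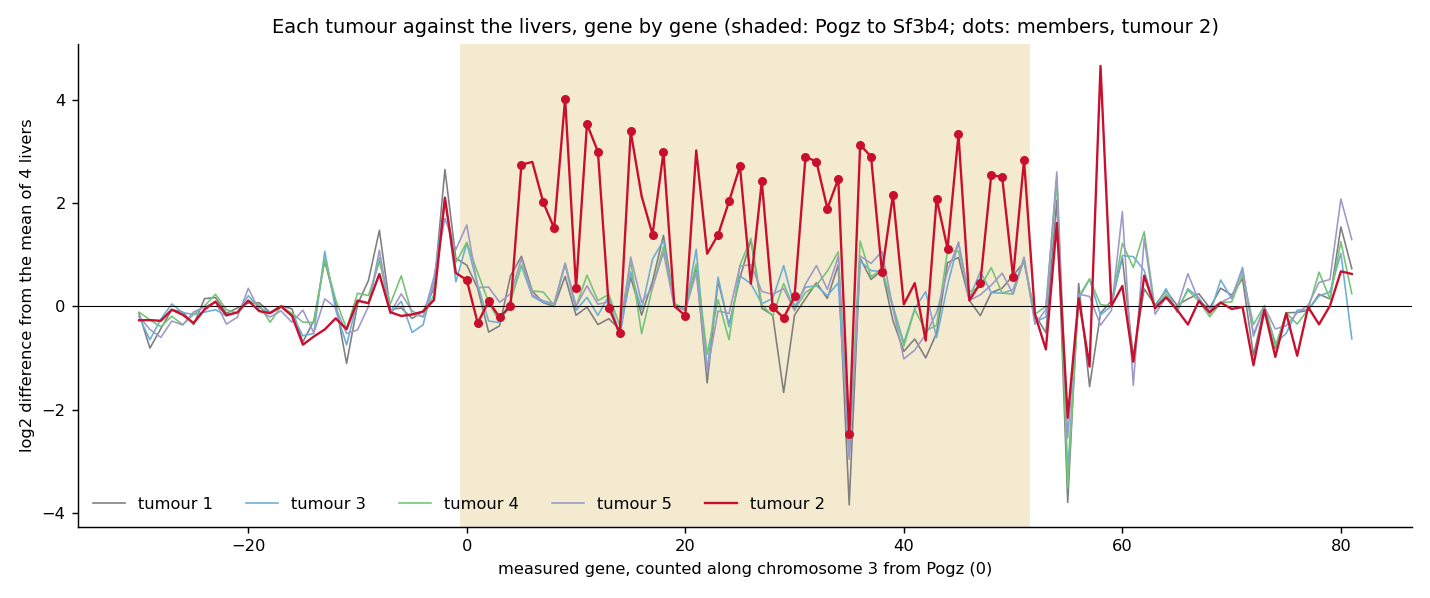
Difference of each tumour from the mean of the 4 livers (log2, vertical axis) for measured genes in chromosome order, counted from Pogz (horizontal axis); each line is a tumour, the shaded span runs from Pogz to Sf3b4 with 30 measured genes on either side, and dots mark the members in tumour 2. Tumour 2 (red) leaves the other tumours from Zfp687 (2.74) to Sf3b4 (2.83), with members such as Ecm1 (-2.48) moving with all tumours, and the tall peak after the span is Platr30.

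Of the 42 members, 24 were at least 2-fold higher in tumour 2 than in the mean of the other 4 tumours, and 0 were 2-fold lower. Over all genes 2.42% were 2-fold higher in this tumour and 3.42% were 2-fold lower, but the members were chosen with these values known and nothing is read from the comparison. In these 24 genes the difference ran from 1.11 (Anxa9) to 3.26 (Vps72) with a median of 2.17, or 4.49-fold. A 4-fold or larger difference was seen for 16 of them, against 0.522% of all genes. Tumour 2 was the highest of the 9 arrays for all 24, and for 28 of the 42 members, against 8.26% of all genes. Among the 28 its lead over the next array was only 0.04 for Car14, 0.05 for Tmod4 and 0.13 for Hormad1. The mean of Hormad1 lay below the highest background control.

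In these 24 genes the other tumours lay closer to each other than to tumour 2. Their spread was not unusual: in the fit without tumour 2 the median standard error was 0.11 over the 24 and 0.13 over all genes. The SD over tumours 1, 3, 4 and 5 had a median of 0.16 and was at most 0.31, and the 4 values never spanned more than 0.66. The gap from tumour 2 down to the next highest of all 9 arrays was between 0.82 and 3.19, with a median of 1.90. Against the liver mean, the 24 genes were 2.61-fold to 16.3-fold higher in tumour 2, with a median of 6.62-fold.

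The change along the chromosome was abrupt at both ends. The first 5 members, Pogz, Psmb4, Selenbp1, Rfx5 and Pi4kb, had differences of -0.70, -0.77, 0.18, 0.02 and -0.26 in tumour 2. Pi4kb, a phosphatidylinositol 4-kinase of the Golgi, had levels of 6.76 in tumour 2, 7.35, 6.89, 6.85 and 7.002 in tumours 1, 3, 4 and 5, and 6.85, 6.36, 6.97 and 6.85 in livers 1 to 4. Tumour 2 was thus the lowest tumour for Pi4kb in this probe set, and its level lay among the livers. In the gene's other probe set tumour 2 differed by 0.10 and was not the lowest tumour. The next measured gene is Zfp687, a zinc finger protein, with levels of 10.23 in tumour 2, 8.46, 8.27, 8.29 and 8.41 in tumours 1, 3, 4 and 5, and 7.44, 7.71, 7.34 and 7.47 in livers 1 to 4. Here tumour 2 lay above every other array by over 1 log2 unit, a 3.67-fold difference.

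At the far end the last member was again high. Sf3b4, a subunit of the SF3b complex that recognises the branch point in splicing, had levels of 12.62 in tumour 2, 10.64, 10.72, 10.69 and 10.74 in tumours 1, 3, 4 and 5, and 9.63, 9.73, 10.04 and 9.75 in livers 1 to 4. The difference was 1.92, or 3.79-fold, with no overlap between tumour 2 and any other array. Its inner neighbour Mtmr11, a myotubularin-related protein, differed by 0.22 in a probe set of a kind that can cross-hybridise, and by 0.74 in its other probe set, where tumour 2 was the highest array at 9.85. Sv2a, the next measured gene outside, encodes a synaptic vesicle glycoprotein and had levels of 7.38 in tumour 2, 7.38, 7.23, 7.38 and 7.18 in tumours 1, 3, 4 and 5, and 7.66, 7.42, 7.38 and 7.69 in livers 1 to 4. Tumour 2 shared its level with tumours 1 and 4 there.

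The other nearest genes outside the run were not higher in tumour 2 than in the other tumours. Bola1, a mitochondrial protein of the iron-sulfur cluster pathway, had levels of 9.44 in tumour 2, 9.76, 10.07, 10.28 and 10.21 in tumours 1, 3, 4 and 5, and 10.02, 10.30, 10.37 and 10.41 in livers 1 to 4. The histone gene H2bc21 had levels of 7.24 in tumour 2, 7.69, 8.13, 8.10 and 8.23 in tumours 1, 3, 4 and 5, and 5.54, 6.10, 5.86 and 5.01 in livers 1 to 4. For both genes tumour 2 was the lowest tumour. On the side of Pogz, Cgn, which encodes the tight junction protein cingulin, had levels of 8.61 in tumour 2, 8.89, 8.44, 8.81 and 9.06 in tumours 1, 3, 4 and 5, and 7.88, 8.13, 7.85 and 7.995 in livers 1 to 4. Tuft1, which encodes tuftelin, had levels of 9.35 in tumour 2, 9.90, 9.37, 9.28 and 8.96 in tumours 1, 3, 4 and 5, and 7.21, 7.11, 6.56 and 8.13 in livers 1 to 4. Snx27, an endosomal sorting nexin, had levels of 8.83 in tumour 2, 9.05, 9.19, 8.94 and 9.28 in tumours 1, 3, 4 and 5, and 8.54, 8.66, 8.73 and 8.91 in livers 1 to 4. In these 3 genes tumour 2 lay within or just below the range of the other tumours. In tumour 1 the median level was 5.77 over the 30 genes before Pogz, 7.53 over the 30 after Sf3b4 and 8.58 over the members. Many genes before Pogz were thus dim, and a rise in them could be missed. Of the 30 measured genes before Pogz 0 were 2-fold higher in tumour 2 and S100a10 was 2-fold lower. Of the 30 after Sf3b4 only H2ac19 and Platr30 were 2-fold higher and Fcgr1 was 2-fold lower. These 4 genes were named after their values were seen. Fcgr1 read lower still in tumour 1, at 6.22 beside 6.60 in tumour 2.

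The 10 measured genes inside the span that are no members gave the same mixture. Of these, 4 were at least 2-fold higher in tumour 2: 4930481B07Rik by 2.55, Gm16740 by 2.31, Mindy1, a deubiquitinase, by 2.25, and Prune1, a phosphoesterase, by 2.18. The other 6 had differences from -0.52 (Gm4349) to 0.88 (C920021L13Rik). With them, 28 of the 47 measured genes from Zfp687 to Sf3b4, or 59.6%, were 2-fold higher in tumour 2.

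The upstream sequences of 5 members are shown because these genes lie at the edge of the run or at an exception within it. Pi4kb and Zfp687 are the adjoining genes on either side of the edge; Rprd2, Prpf3 and Mrps21 are adjoining members of which only the middle one was not higher in tumour 2. Each window is the 250 bases before the RefSeq start on GRCm38.p6, 5′ to 3′ on the strand of the gene. Capitals mark matches on either strand to any of 6 motifs: the CCAAT box, the GC box GGGCGG, the TATA box TATAAA, the ETS motif CCGGAAGT, the E2F motif TTTCCCGC and the E-box CACGTG.
Pi4kb, chr3:94974481-94974730, plus strand: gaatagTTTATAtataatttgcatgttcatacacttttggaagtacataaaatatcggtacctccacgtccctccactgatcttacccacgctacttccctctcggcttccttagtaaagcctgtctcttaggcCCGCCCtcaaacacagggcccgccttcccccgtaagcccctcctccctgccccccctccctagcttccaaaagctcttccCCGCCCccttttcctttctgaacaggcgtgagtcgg
Zfp687, chr3:95015458-95015707, minus strand: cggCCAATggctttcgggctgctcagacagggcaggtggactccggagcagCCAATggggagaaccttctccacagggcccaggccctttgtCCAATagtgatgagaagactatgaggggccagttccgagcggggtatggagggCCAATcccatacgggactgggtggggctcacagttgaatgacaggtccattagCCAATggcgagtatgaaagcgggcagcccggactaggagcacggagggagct
Rprd2, chr3:95818954-95819203, minus strand: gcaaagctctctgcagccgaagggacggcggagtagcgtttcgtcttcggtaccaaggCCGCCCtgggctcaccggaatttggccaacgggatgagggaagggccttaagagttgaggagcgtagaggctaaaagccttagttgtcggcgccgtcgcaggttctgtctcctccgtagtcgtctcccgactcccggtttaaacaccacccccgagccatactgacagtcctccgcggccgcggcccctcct
Prpf3, chr3:95855886-95856135, minus strand: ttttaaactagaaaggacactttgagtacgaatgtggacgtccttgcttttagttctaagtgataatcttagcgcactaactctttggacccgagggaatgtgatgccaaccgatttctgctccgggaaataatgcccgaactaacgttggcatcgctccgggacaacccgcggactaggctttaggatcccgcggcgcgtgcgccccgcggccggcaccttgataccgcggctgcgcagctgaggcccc
Mrps21, chr3:95871515-95871764, minus strand: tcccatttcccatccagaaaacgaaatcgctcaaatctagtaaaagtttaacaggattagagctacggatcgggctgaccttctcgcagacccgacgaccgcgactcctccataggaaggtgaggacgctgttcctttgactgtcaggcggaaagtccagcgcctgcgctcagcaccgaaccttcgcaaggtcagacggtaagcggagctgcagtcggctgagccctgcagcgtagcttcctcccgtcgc

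The Zfp687 window held CCAAT at 5 places, and the Pi4kb window held the reverse complement of GGGCGG at 2 places and of TATAAA at 1. The Rprd2 window held the reverse complement of GGGCGG once, and none of the 6 motifs was in the windows of Prpf3 and Mrps21. Rprd2, Prpf3 and Mrps21 had similar numbers of CpG dinucleotides in these windows, at 23, 23 and 21. A RefSeq window was found for 37 of the 42 members, all but Vps72, Scnm1, Bnipl, Otud7b and Sf3b4. The 20 matched members that were 2-fold higher in tumour 2 had a median of 13 CpG, the 12 members from Zfp687 to Sf3b4 that were not had 7, and all 27025 RefSeq windows had 6. CCAAT was in 11 of the 20, in 1 of the 12 and in 34.5% of all windows. The 5 members from Pogz to Pi4kb, which were not 2-fold higher either, are in neither set. In chromosome order their windows held 11, 7, 4, 12 and 10 CpG. CCAAT was in the windows of Pogz, Selenbp1 and Rfx5 and not in those of Psmb4 and Pi4kb. GGGCGG was in 9 of the 20, 5 of the 12 and 33.0% of all windows. The other motifs were in at most 2 of the 20 and at most 2 of the 12, beside 13.0% of all windows for the TATA box, 2.92% for the ETS motif, 0.929% for the E2F motif and 6.04% for the E-box. A match describes letters only, and the 2 sets of members were formed by their values in tumour 2.

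The first members described act on chromatin or transcription. Vps72, a histone H2A.Z-binding subunit of the SRCAP and TIP60 complexes and the member with the largest difference, had levels of 12.53 in tumour 2, 9.08, 9.31, 9.33 and 9.34 in tumours 1, 3, 4 and 5, and 8.51, 8.60, 8.45 and 8.46 in livers 1 to 4. Tumour 2 lay more than 3 log2 units above every other array, a 9.59-fold difference from the other tumours. Anp32e, a chaperone that takes H2A.Z out of chromatin, had levels of 12.71 in tumour 2, 10.32, 10.62, 10.44 and 10.62 in tumours 1, 3, 4 and 5, and 9.25, 9.42, 9.60 and 9.25 in livers 1 to 4. Its difference was 2.20, or 4.61-fold, and all tumours lay above all livers.

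Setdb1 had levels of 10.78 in tumour 2, 8.62, 8.66, 8.86 and 8.85 in tumours 1, 3, 4 and 5, and 8.04, 8.06, 8.04 and 8.15 in livers 1 to 4. The other 4 tumours lay close together and tumour 2 was 4.10-fold higher. Gabpb2, a subunit of the ETS-family transcription factor GABP, had levels of 11.84 in tumour 2, 9.02, 9.12, 9.33 and 9.41 in tumours 1, 3, 4 and 5, and 8.46, 8.43, 8.37 and 8.56 in livers 1 to 4. For both genes the 3 kinds of array were stacked without overlap, livers lowest, then tumours 1, 3, 4 and 5, then tumour 2. Rprd2, which binds the C-terminal domain of RNA polymerase II, had levels of 10.47 in tumour 2, 8.09, 8.26, 8.14 and 8.40 in tumours 1, 3, 4 and 5, and 7.57, 7.37, 7.62 and 7.72 in livers 1 to 4 and showed the same order.

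Arnt had levels of 10.96 in tumour 2, 8.51, 8.59, 8.58 and 8.83 in tumours 1, 3, 4 and 5, and 8.59, 8.45, 8.46 and 8.67 in livers 1 to 4. Tumour 2 was 5.05-fold higher than the other tumours, whose values overlapped those of the livers. Its probe set is of a kind that can cross-hybridise, and its 4 other probe sets also read higher in tumour 2. Pogz, a zinc finger protein that binds heterochromatin protein HP1, had levels of 7.89 in tumour 2, 8.18, 8.61, 8.62 and 8.96 in tumours 1, 3, 4 and 5, and 7.31, 7.54, 7.28 and 7.39 in livers 1 to 4. Here tumour 2 was the lowest tumour, by -0.70 against the mean of the others, and still above every liver. Rfx5, a factor of MHC class II promoters, did not stand out in tumour 2 (0.02).

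Splicing genes were split. Scnm1, a zinc finger splicing factor, had levels of 11.54 in tumour 2, 8.002, 8.19, 8.62 and 8.41 in tumours 1, 3, 4 and 5, and 8.05, 8.05, 7.96 and 8.01 in livers 1 to 4. The difference of 3.24, or 9.44-fold, was the largest after Vps72, and tumours 1, 3, 4 and 5 overlapped the livers. Prpf3, a protein of the U4/U6 small nuclear ribonucleoprotein, had levels of 8.49 in tumour 2, 8.53, 8.50, 8.55 and 8.89 in tumours 1, 3, 4 and 5, and 7.68, 7.95, 7.75 and 7.95 in livers 1 to 4. Tumour 2 was the lowest tumour for Prpf3 and lay close to tumours 1, 3 and 4, although Rprd2 before it and Mrps21 after it differed by 2.24 and 2.24. Only 1 probe set reads Prpf3, so no other probe set could be compared.

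In protein breakdown the genes on either side of the edge went apart. Psmd4, the ubiquitin receptor of the proteasome's regulatory particle, had levels of 13.60 in tumour 2, 11.66, 11.66, 11.87 and 11.70 in tumours 1, 3, 4 and 5, and 11.52, 11.57, 11.53 and 11.74 in livers 1 to 4. Tumour 2 was 3.68-fold higher and the other 4 tumours lay close to the livers. Psmb4, a beta subunit of the proteasome's core, had levels of 12.45 in tumour 2, 13.12, 13.19, 13.42 and 13.14 in tumours 1, 3, 4 and 5, and 12.68, 12.79, 12.75 and 12.88 in livers 1 to 4. For Psmb4 tumour 2 was the lowest of all 9 arrays, at -0.77 against the other tumours. Otud7b, a deubiquitinase, differed by 2.13. Aph1a, the scaffold subunit of gamma-secretase, which cleaves Notch and the amyloid precursor protein, had levels of 12.75 in tumour 2, 10.14, 10.05, 10.29 and 10.54 in tumours 1, 3, 4 and 5, and 10.69, 10.60, 10.58 and 10.78 in livers 1 to 4. For Aph1a tumour 2 was the only tumour above the livers, and tumours 1, 3, 4 and 5 lay below all of them.

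The adjoining cathepsin genes were not higher in tumour 2. Ctss, the lysosomal protease of antigen-presenting cells, had levels of 10.83 in tumour 2, 9.38, 11.84, 11.49 and 11.40 in tumours 1, 3, 4 and 5, and 11.29, 11.17, 11.50 and 10.25 in livers 1 to 4. Tumour 1 was the lowest array and the remaining tumours overlapped the livers. Ctsk, the collagen-cleaving cathepsin of osteoclasts, had levels of 7.39 in tumour 2, 7.24, 7.56, 7.21 and 7.64 in tumours 1, 3, 4 and 5, and 7.05, 7.36, 7.70 and 7.52 in livers 1 to 4, and the groups overlapped. The macrophage list (Adgre1, Cd68, Csf1r, Clec4f, Marco, Cd5l) had a mean level of 7.33 in tumour 1, 8.14 in tumour 2 and 8.89, 9.50 and 8.98 in tumours 3, 4 and 5, against 9.30 to 10.38 in the livers. Of these 6 genes, 4 were lower in tumour 2 than in the mean of the other tumours, and none was below the background controls on every array. The part of macrophage content in the Ctss values was not tested, and in bulk samples fewer cells of a type and less RNA per cell cannot be told apart.

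Mcl1, the only member of the BCL2 family in the run, had levels of 13.39 in tumour 2, 11.65, 11.70, 12.18 and 11.82 in tumours 1, 3, 4 and 5, and 11.52, 11.86, 11.28 and 11.33 in livers 1 to 4. The difference from the other tumours was 1.55, or 2.93-fold, and tumours 1, 3, 4 and 5 overlapped the livers. Ensa, which inhibits the phosphatase PP2A at entry into mitosis once it is phosphorylated, had levels of 12.004 in tumour 2, 9.66, 9.60, 9.61 and 9.99 in tumours 1, 3, 4 and 5, and 9.18, 9.38, 9.22 and 9.02 in livers 1 to 4. All tumours lay above all livers for Ensa, with tumour 2 a further 4.89-fold above the others. The mitochondrial genes Tars2, the threonyl-tRNA synthetase, and Mrps21, a protein of the small ribosomal subunit, differed by 2.12 and 2.24.

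Several genes of lipids and membranes were also higher in tumour 2. Cers2, which makes very-long-chain ceramides, had levels of 14.08 in tumour 2, 11.69, 11.65, 11.40 and 11.91 in tumours 1, 3, 4 and 5, and 11.94, 12.003, 12.03 and 12.23 in livers 1 to 4. Tumour 2 was the only tumour above the livers, and the other 4 lay below every liver. Golph3l, a Golgi protein that binds phosphatidylinositol 4-phosphate, had levels of 10.40 in tumour 2, 7.65, 7.87, 7.77 and 7.93 in tumours 1, 3, 4 and 5, and 7.74, 7.41, 7.45 and 7.39 in livers 1 to 4, a 6.04-fold difference. Pip5k1a, a kinase that makes phosphatidylinositol 4,5-bisphosphate, had levels of 10.17 in tumour 2, 8.66, 8.71, 8.68 and 8.71 in tumours 1, 3, 4 and 5, and 8.71, 8.48, 8.57 and 8.88 in livers 1 to 4. In Pip5k1a and Golph3l tumours 1, 3, 4 and 5 overlapped the livers and tumour 2 lay above them all.

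Lysmd1, a protein with a LysM domain, had levels of 10.59 in tumour 2, 7.24, 7.42, 7.71 and 7.64 in tumours 1, 3, 4 and 5, and 7.64, 7.56, 7.32 and 7.86 in livers 1 to 4. The 8.53-fold difference was the third in size, and the other tumours did not stand apart from the livers. Vps45, which regulates endosomal membrane fusion, Cdc42se1, a small effector of the GTPase Cdc42, and Anxa9, an annexin, differed by 2.12, 1.77 and 1.11.

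**Figure D2:**
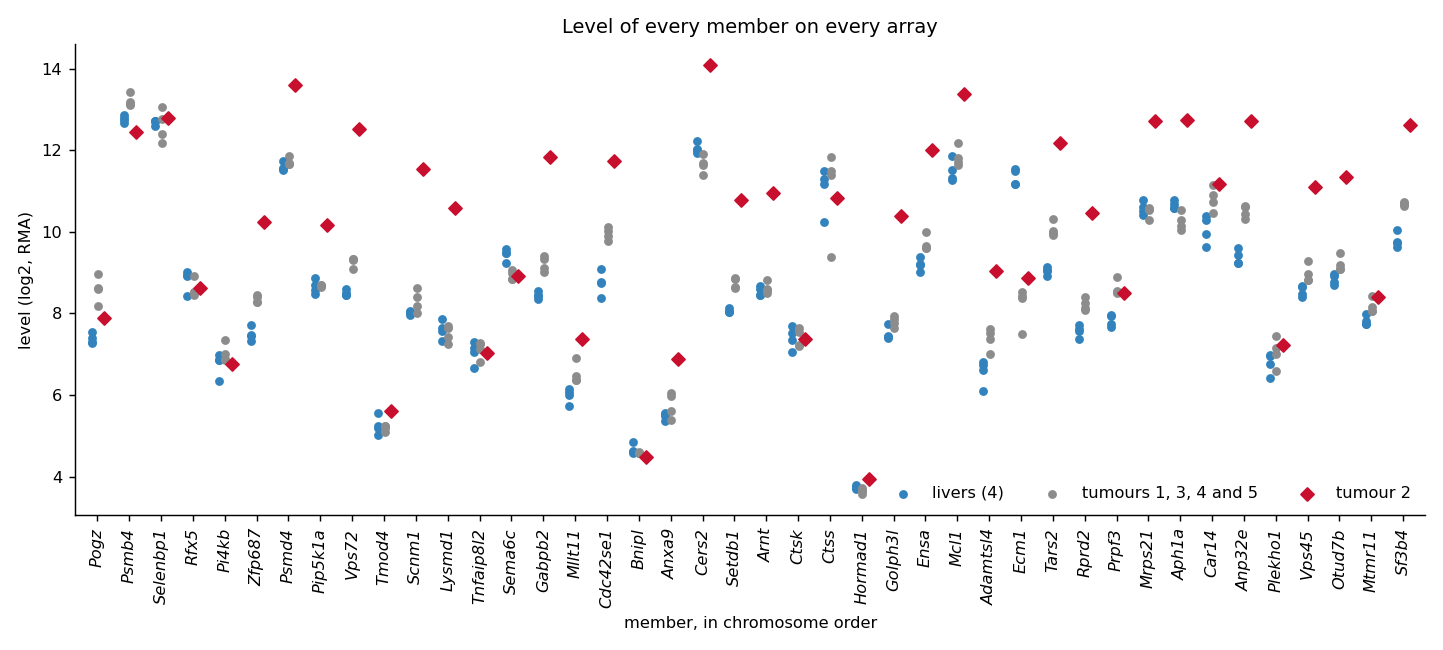
Deposited log2 level of the members in each of the 9 arrays, with members in chromosome order; points are arrays and colours mark tumour 2, the other 4 tumours and the 4 livers. Tumour 2 is the highest of the 9 arrays for 28 of the 42 members, such as Vps72 (12.53), and lies among or below the other tumours for Prpf3 (8.49) and Psmb4 (12.45). For Car14, Tmod4 and Hormad1 it leads the next array by 0.13 or less.

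Between Zfp687 and Sf3b4, 13 members were below 2-fold in tumour 2, with differences from -0.20 (Ctss) to 0.86 (Mllt11) and a median of 0.18. They included Tmod4, a muscle tropomodulin (0.42), Tnfaip8l2, a regulator of immune signalling (-0.09), Sema6c, a transmembrane semaphorin (-0.02), and Hormad1, a protein of meiotic chromosomes (0.27). Also in this group were Bnipl (-0.11), Ctsk (-0.02), Prpf3 (-0.13), Plekho1 (0.18), Mtmr11 (0.22), the membrane carbonic anhydrase Car14 (0.37) and the secreted matrix protein Ecm1 (0.66). Hormad1 was the only member whose mean lay below the highest background control, 4.36, so a difference there could not be read. Bnipl and Tmod4 were also dim, with means of 4.61 and 5.27, so a rise in them could be missed. Just inside the 2-fold limit stood Anxa9 (1.11) and Pip5k1a (1.48), and just outside it Mllt11 (0.86), a small protein found as a fusion partner in leukaemia, and Ecm1 (0.66).

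Other probe sets of the same genes gave a second reading in tumour 2. The 42 members were read by 90 probe sets, and 23 members had more than 1. Of the 24 members that were 2-fold higher, 16 had 38 other probe sets, and all 38 read above 0 in tumour 2 against the other tumours. The difference was 2-fold or more in 29 of them, with a median of 1.94 and a range from 0.49 to 3.52. The lowest and the highest of these both belonged to Rprd2. The members from Zfp687 to Sf3b4 that were below 2-fold had 4 other probe sets, of which 0 were 2-fold higher. These readings come from the same RNA and are no replicates.

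**Figure D3:**
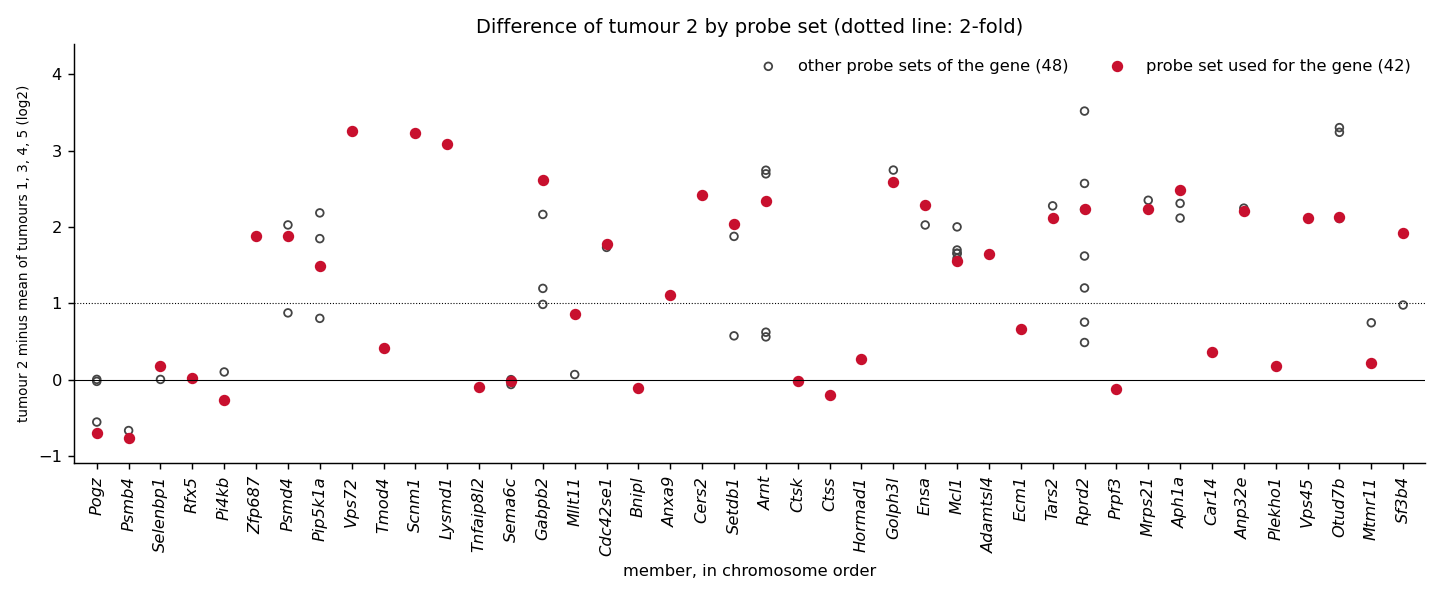
Tumour 2 minus the mean of tumours 1, 3, 4 and 5 (log2, vertical axis) for each of the 90 probe sets of the 42 members in chromosome order; filled points are the 42 probe sets used and open points the other 48. The 38 open points of the members that were 2-fold higher all lie above 0, from 0.49 to 3.52.

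The comparison of tumours with livers answers how the members differed between the groups that the study compared. A sign of RNA quality, the 3′ minus 5′ difference of the Actb controls, moved with the groups. It was 0.53 to 0.72 log2 units in the tumours and 0.91 to 1.002 in the livers, without overlap. The Gapdh controls leaned the other way and overlapped, at -0.24 to -0.18 in the tumours and -0.32 to -0.21 in the livers. The part of RNA quality in the group differences was not tested. With all 5 tumours, 11 members were higher in tumours and 2 were lower at an adjusted p under 0.05 (limma, Benjamini-Hochberg over 18193 genes), beside 16.1% and 17.4% of all genes. Tumour 2 is part of this contrast, so nothing is read from the count of members. Leaving out liver 1, 2, 3 or 4 lowered the 11 to 5, 4, 5 and 5. Of the calls over all genes 48.0% were higher in tumours, against 77.6% when arrays were centred on housekeeping genes and 25.7% when centred on the 75th percentile. Without tumour 2, 19 members were higher and 4 were lower, beside 17.9% and 17.1% of all genes; the remaining tumours were the reference when the members were chosen. The 13 members called with all tumours were also called without tumour 2, and 10 further members were called only without it. The median standard error of the members was 0.37 with tumour 2 and 0.12 without it, against 0.13 over all genes in both fits.

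Vps72, Setdb1 and Gabpb2 were higher than in the livers once tumour 2 was left out. In limma's fit without tumour 2, tumour minus liver was 0.76 (SE 0.09, adjusted p = 0.000342) for Vps72 and 0.68 (SE 0.09, adjusted p = 0.000587) for Setdb1. With tumour 2 included the values were larger and did not pass, at 1.42 (SE 0.65, adjusted p = 0.120) and 1.08 (SE 0.41, adjusted p = 0.0688). Gabpb2 behaved alike, with 0.76 (SE 0.11, adjusted p = 0.000907) without tumour 2 and 1.29 (SE 0.53, adjusted p = 0.0879) with it. All tumours lay above all livers for 18 of the 42 members, against 14.0% of all genes. Tumour 2, by which the members were chosen, enters this count, so nothing is read from it.

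Anp32e, Tars2, Sf3b4 and Zfp687 were higher in tumours 1, 3, 4 and 5 than in livers by limma, and the fit with tumour 2, which the choice of members favours, adds no support. For Anp32e the difference was 1.12 (SE 0.11, adjusted p = 0.000177) without tumour 2 and 1.56 (SE 0.45, adjusted p = 0.0254) with it. With all tumours the calls of Tars2, Sf3b4 and Zfp687 were lost on leaving out any 1 liver, and that of Anp32e on leaving out liver 1, 2 or 4. Averaging the probe sets of a gene also ended the calls of Tars2 and Sf3b4. For Tars2 the fit without tumour 2 gave 1.01 (SE 0.10, adjusted p = 0.000202) and for Sf3b4 0.91 (SE 0.10, adjusted p = 0.000275). Pogz was higher by 1.21 (SE 0.16, adjusted p = 0.000659) and Prpf3 by 0.79 (SE 0.12, adjusted p = 0.00130), and both were called in every setting tried.

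Cers2 and Aph1a had lower levels in tumours 1, 3, 4 and 5 than in livers, while tumour 2 was higher. For Cers2 limma gave -0.39 (SE 0.12, adjusted p = 0.0387) without tumour 2 and 0.10 (SE 0.49, adjusted p = 0.891) with it. For Aph1a it gave -0.40 (SE 0.12, adjusted p = 0.0282) and 0.09 (SE 0.50, adjusted p = 0.897). The group value with all 5 tumours thus averaged 1 high array and 4 low ones.

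Ecm1 had the largest group difference of the members, with levels of 8.87 in tumour 2, 7.50, 8.42, 8.52 and 8.38 in tumours 1, 3, 4 and 5, and 11.53, 11.49, 11.18 and 11.18 in livers 1 to 4. All tumours lay below all livers, tumour 2 was the highest tumour, and limma gave -3.01 (SE 0.24, adjusted p = 3.05e-05) with all tumours. Sema6c was lower too, at -0.51 (SE 0.09, adjusted p = 0.00272), in limma, with all tumours below all livers; this call was lost when probe sets were averaged and when arrays were centred on housekeeping genes. Mcl1 and Arnt did not pass without tumour 2, at 0.34 (SE 0.16, adjusted p = 0.136) and 0.08 (SE 0.10, adjusted p = 0.527) in limma's fit, and neither did Psmd4 at 0.13 (SE 0.09, adjusted p = 0.272). Selenbp1, a methanethiol oxidase abundant in liver, gave -0.08 (SE 0.18, adjusted p = 0.730). Adamtsl4, a secreted relative of the ADAMTS proteases, was higher by 0.82 (SE 0.19, adjusted p = 0.0106) in the same fit.

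**Figure D4:**
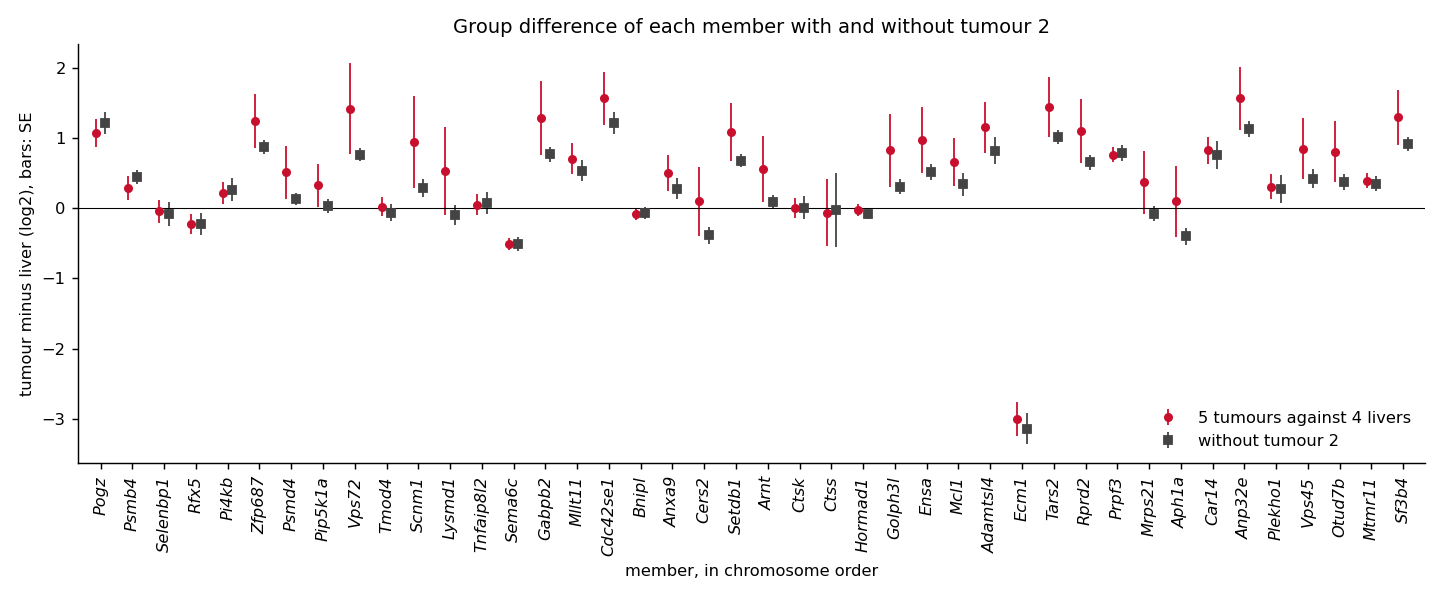
Tumour minus liver (log2) with its standard error from limma (bars) for each member in chromosome order, with all 5 tumours (red circles) and without tumour 2 (dark squares). The bars of most members that were high in tumour 2 shorten when it is left out, from a median standard error of 0.37 to 0.12 over the 42 members, and Cers2 moves from 0.10 to -0.39.

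Genes that work with the members but lie outside the run were read from 10 lists. Of 126 measured genes in these lists, 0 were 2-fold higher and 7 were 2-fold lower in tumour 2 than in the other tumours, beside 2.42% and 3.42% of all genes, and the median over the 126 was -0.07. Of 29 other proteasome genes, 0 were 2-fold higher and the median was -0.27, beside 1.88 for Psmd4 and -0.77 for Psmb4. The lists of U4/U6 and SF3b splicing factors, gamma-secretase, small mitochondrial ribosome and ceramide synthases had medians of 0.06, 0.19, -0.0041 and -0.25 in tumour 2, with 0 of 12, 0 of 4, 0 of 26 and 0 of 4 genes 2-fold higher. For H3K9 methylation the median was 0.18 and 0 of 9 were 2-fold higher.

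Among the BCL2 family, 0 of 14 genes were 2-fold higher in tumour 2 and the median was 0.06. Pmaip1, the p53-induced activator NOXA that binds Mcl1, was lower in tumour 2 by 3.58 log2 units. Its level was 4.52 in tumour 2, 4.66 to 5.34 in the livers and 6.94 to 9.22 in the other tumours. Tumour 2 thus lay near the livers and the background controls, and the other tumours lay above them. Of 14 partners of Arnt and hypoxia targets, 0 were 2-fold higher. Ahr, the Ah receptor, and Egln3, a hypoxia-induced prolyl hydroxylase, were lower, at -1.11 and -3.45. Ahr was about as low in tumour 1, at 5.67 beside 5.61 in tumour 2. The 7 genes of the MHC class II list are Rfxap and Rfxank, the partner subunits of Rfx5, the transactivator Ciita, and their targets H2-Aa, H2-Ab1, H2-Eb1 and Cd74. Among the targets the differences were -1.35, -1.49, -0.98 and -1.48, and among Rfxap, Rfxank and Ciita they were -0.11, -0.14 and -0.30. For each of the targets tumour 1 read below tumour 2, such as 10.14 beside 10.54 for H2-Aa and 8.82 beside 9.75 for H2-Eb1. The mean of the macrophage list was lower in tumour 2 (8.14) than in tumours 3, 4 and 5 and higher than in tumour 1, and its part in these MHC values was not tested. Mrps28 was the remaining gene that was 2-fold lower. The 7 genes that were 2-fold lower were named after their values were seen.

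Between tumours and livers the counts of the partner lists are read beside the 16.1% of all genes that were higher and the 17.4% that were lower. With all 5 tumours limma called 5 of 12 U4/U6 and SF3b genes higher and 1 lower, for example Phf5a by 0.95 (SE 0.11, adjusted p = 0.00031). It called 6 of 14 BCL2 family genes higher and 0 lower, with Bok at 1.89 (SE 0.22, adjusted p = 0.000309). For H3K9 methylation 4 of 9 were higher and 0 lower, led by Cbx5, the HP1 alpha gene, at 1.83 (SE 0.23, adjusted p = 0.000491). Of the 29 proteasome genes 1 was higher and 3 were lower, and of the 26 genes of the small mitochondrial ribosome 1 and 3. Without tumour 2 these counts were 4 and 3 for the proteasome and 6 and 4 for the mitochondrial ribosome, beside 17.9% and 17.1% of all genes. The medians of tumour minus liver were 0.33 for the splicing list, 0.39 for the BCL2 family, 0.33 for H3K9 methylation, 0.03 for the proteasome and -0.14 for the mitochondrial ribosome, against -0.08 over all genes.

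The remaining lists held between 4 and 14 measured genes, so their counts rest on few genes. Gamma-secretase had 1 of 4 genes higher and 0 lower, which was Ncstn at 0.49 (SE 0.10, adjusted p = 0.00571 in limma). Ceramide synthases had 1 of 4 higher and 1 lower, cathepsins 2 of 7 and 2, and MHC class II 1 of 7 and 0. Without tumour 2 the counts were 1 and 1 for gamma-secretase, 1 and 0 for ceramide synthases and 3 and 2 for cathepsins. Of Arnt partners and hypoxia targets 1 of 14 was higher and 3 were lower, among them Ahr at -3.99 (SE 0.46, adjusted p = 0.000268) and Pdk1 at -3.85 (SE 0.55, adjusted p = 0.000918).

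**Figure D5:**
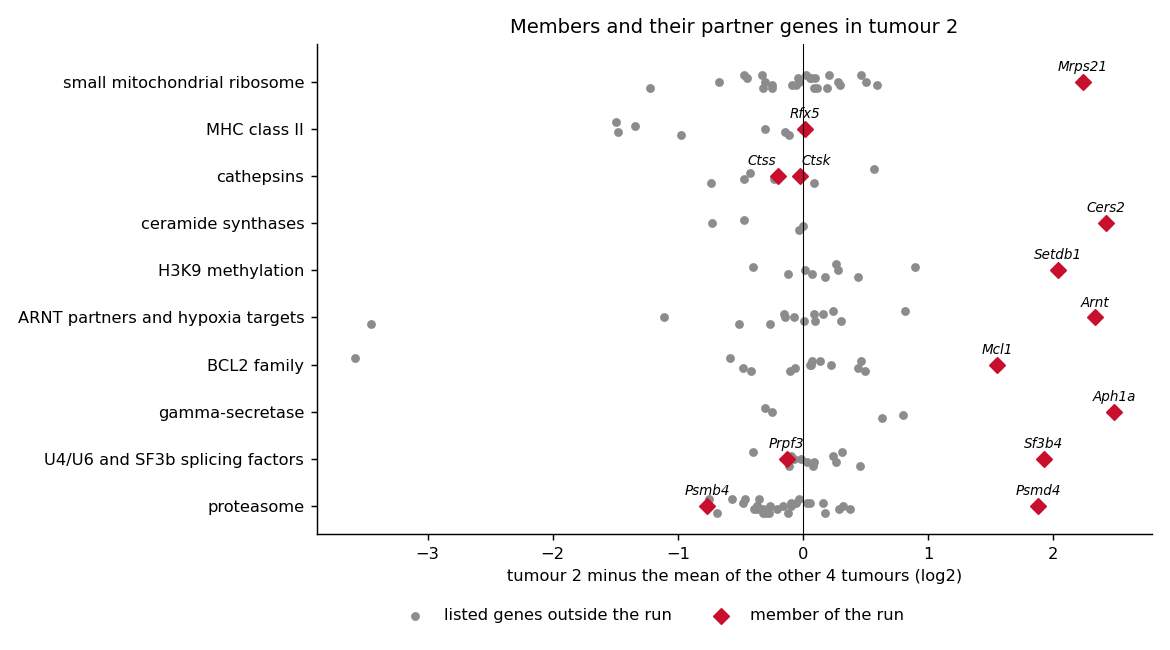
Tumour 2 minus the mean of the other 4 tumours (log2, horizontal axis) for members of the run and for the 126 listed genes outside it, by list of partners; the small points are the listed genes and the labelled points the members. Members such as Psmd4 (1.88), Setdb1 (2.03) and Aph1a (2.49) lie to the right of their lists, in which 0 of 126 genes were 2-fold higher. Psmb4 (-0.77), Prpf3 (-0.13), Ctss (-0.20) and Ctsk (-0.02) do not, and the members were chosen by tumour 2.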

How the data were processed

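The values are log2 expression per probe set of Affymetrix mouse genome arrays, deposited by the authors; the submitters' processing notes name RMA, with its version and settings not given in the sources used here. Per the labels' protocols, Trizol RNA went through 2 rounds of RiboAmp amplification before hybridisation. RMA compresses dim values, and probe level data and scan batches were not used here. Platform symbols named 34945 probe sets with 1 gene; those with several genes (932) or none (9160) and 64 controls were left out. Groups were compared with limma 3.58.1 in R 4.3.3 (lmFit, eBayes, two-sided, no covariate), adjusted by Benjamini-Hochberg over 18193 genes, after a check on simulated data. Tables were made with pandas 2.3.3. Values per array were given for the end members and 3 neighbours outside each end, the 10 largest and 4 smallest differences in tumour 2, and members with well-known roles. Members and lists were chosen with earlier results of these data known. The number of arrays limits the precision.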

Additional observations from a re-analysis of the deposited data

Results flagged for a closer look

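In 84 groups of values (42 members in tumours and in livers), 27 had an array far from the others of its group by Dixon's criterion, where chance gives about 1 in 20. Tumour 2 was the high array in 21 members. Its level was 10.23 for Zfp687, 13.60 for Psmd4, 10.17 for Pip5k1a, 12.53 for Vps72, 11.54 for Scnm1, 10.59 for Lysmd1 and 11.84 for Gabpb2. It was 11.73 for Cdc42se1, 14.08 for Cers2, 10.78 for Setdb1, 10.96 for Arnt, 10.40 for Golph3l, 12.004 for Ensa and 12.18 for Tars2. It was 10.47 for Rprd2, 12.73 for Mrps21, 12.75 for Aph1a, 12.71 for Anp32e, 11.09 for Vps45, 11.35 for Otud7b and 12.62 for Sf3b4. The members were chosen for this tumour, so for it that rate does not apply and the count is a description.

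Tumour 2 was also the low array for Bnipl, at 4.48, and tumour 5 was the high array for Prpf3, at 8.89. Bnipl was dim on every array, near the highest background control of 4.36. Among the livers, liver 2 was low for Selenbp1 at 12.60, liver 3 high for Bnipl at 4.84, liver 4 high for Setdb1 at 8.15 and liver 1 high for Golph3l at 7.74.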

How the results depend on the processing

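The median of tumour 2 against the other tumours was 1.52 to 1.70 when another tumour was left out of the reference and 1.54 to 1.69 under other probe sets, filters, scalings and the median as reference; the count of 2-fold higher members was 23 or 24. The medians of tumours 4 and 5 changed sign in some settings, and in both when tumour 2 left the reference. In the comparison with livers, members higher numbered 11, and 4 to 19 when 1 array was left out: 19 without tumour 2, and 5, 4, 5 and 5 without livers 1, 2, 3 and 4. Members lower numbered 2, and 2 to 4 when 1 array was left out, with 4 without tumour 2; there was 1 when probe sets were averaged and 1 with housekeeping centring. Over all genes 6091 were called, 4632 to 6361 with 1 array left out, 3561 with housekeeping centring and 9378 with 75th-percentile centring. Of the calls, 48.0% were higher, against 77.6% and 25.7% under these centrings, which moved the median of all genes from -0.08 to 0.11 and -0.23. With the replicate number as a block, in which tumour 5 has no partner, 3552 genes and 7 members higher were called, and Cdc42se1, Tars2, Sf3b4 and Anp32e were not. Deviations of arrays with the same number correlated at -0.13, -0.07, 0.18 and -0.12, so the numbers were not taken as pairs. The causes were not tested.

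A difference in 1 tumour has no replicate. RMA values near the background controls understate differences, and RNA alone does not show the state of the DNA.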

Other observations

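Beyond the run, Platr30, the 7th measured gene after Sf3b4 and a noncoding RNA named for its expression in pluripotent cells, had a level of 9.28 in tumour 2. It was 4.26 to 4.65 in the other tumours and 4.48 to 4.89 in the livers, and the 6 measured genes between it and Sf3b4 included 1 that was 2-fold higher in tumour 2, H2ac19. Its difference of 4.82 log2 units was larger than that of any member.

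Over the 9 arrays, the 5 genes outside the list whose levels were most like the median of the members were 4930481B07Rik, Hemgn, Platr30, Cltrn and Pih1d1. Their Pearson correlations over the arrays were between 0.958 and 0.986 and rest on tumour 2 as the high array of each. Of these, 4930481B07Rik lies within the run and Platr30 on the same chromosome. Hemgn, a gene of blood-forming cells on chromosome 4, had a level of 6.64 in tumour 2 and 3.84 to 4.10 in the other tumours. Cltrn, which encodes collectrin, on chromosome X, had 5.84 against 3.44 to 3.62, with tumour 1, the other tumour of low Xist, at 3.62, and Pih1d1 on chromosome 7, 10.55 against 9.61 to 9.90.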
